A study of Mus musculus with 4 samples.

Results

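The 9 genes of MHC class I presentation described here are HLA-B, HLA-C, HLA-E, HLA-F, B2M, TAP1, TAP2, PSMB9 and NLRC5, found by symbol among the 36601 human genes counted in both droplet reactions. They were followed in human cells sorted as live CD45+ from MDA-MB-231 tumors, a human triple-negative breast cancer line grown in the mammary fat pad of MISTRG mice. These mice carry human genes for myeloid growth factors and were irradiated as pups and engrafted with CD34+ cells of human fetal liver, so that the host keeps its own mouse leukocytes and the human leukocytes come from donors whose number per mouse is not given in the sources used here. 7 mice were left untreated and 7 received maraviroc, a small-molecule drug, in the drinking water. All 14 mice carried the same tumor line, and each mouse was marked with 1 hashtag antibody, with 4 untreated and 3 maraviroc-treated mice in reaction 1 and 3 untreated and 4 maraviroc-treated mice in reaction 2. The treatment was read from the hashtag names.

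MHC class I molecules show peptides from inside a cell to CD8 T cells and to NK cells. The proteasome cuts proteins into peptides, the TAP transporter carries them into the endoplasmic reticulum, and there they are loaded onto a heavy chain paired with beta-2-microglobulin before the complex moves to the surface. Interferon gamma raises the transcription of most of these genes, and the transactivator NLRC5 acts at their promoters. HLA genes differ in sequence between people, so reads of the donors and of the tumor line were aligned to reference alleles that need not be theirs.

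In total, 37806 barcodes held over 600 and at most 6000 genes and passed a limit on mitochondrial counts. Gates on marker UMIs, none of which is a member, placed 13885 of them among macrophages, 9822 among lymphoid cells, 4090 among monocytes, 320 among dendritic cells and 93 among tumor cells, and left 9596 in no gate. Of all these barcodes, 19817 were singlets with 1 hashtag, and only singlets entered the levels per mouse. Over all deposited barcodes, before these limits, median depth was 2764 UMIs in reaction 1 and 10204.5 in reaction 2. Macrophage singlets past the limits had medians of 3469 and 12928 UMIs. Genes outside the gates matched the names: the lymphoid cells held the most LCK and IL32, the dendritic cells the most HLA-DQA1 and CST3, the monocytes the most S100A8 and S100A9, the macrophages the most CD68 and MS4A7, and the tumor cells the most VIM. APOE, often taken as a macrophage gene, reached only 26.1 CPM (defined next) in the macrophages of reaction 1 and 18.5 in those of reaction 2. The lymphoid gate also held GNLY, a gene of cytotoxic cells and itself a marker of that gate, at 6797 and 4224 CPM.

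Levels are CPM, the UMIs of a gene per 1000000 UMIs of a mouse's cells of 1 class. Each UMI stands for 1 transcript end, so levels of different genes were not corrected for length. Differences are log2 fold changes from edgeR's quasi-likelihood test on the summed UMIs, with the mouse as a block, and adjusted p-values are from the Benjamini-Hochberg method over all genes tested. Nothing in the sources says whether mice shared a donor. In fits with the mouse as a block, p-values measure the spread left after mouse and cell class are taken into account. The maraviroc fits have no such block, and their p-values measure the spread between mice.

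**Figure D1:**
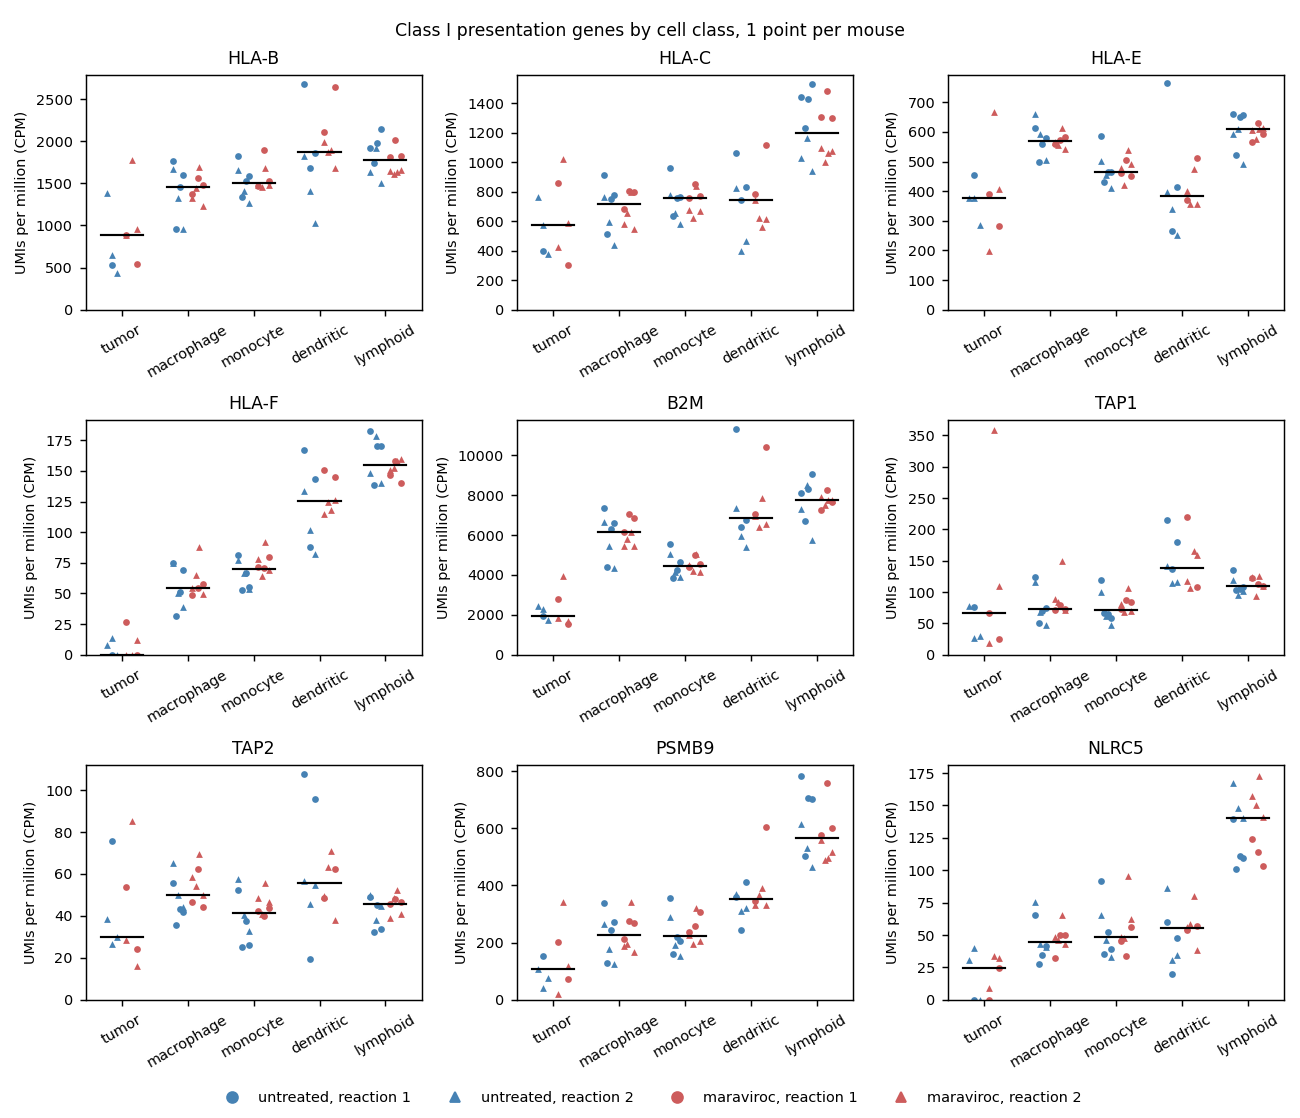
Levels of the 9 genes in CPM (vertical axes, from 0, scaled to each gene) in the 5 cell classes, with 1 point per mouse (14 mice; 12 for dendritic cells, 9 for tumor cells). Blue points are untreated and red points maraviroc-treated mice, circles reaction 1 and triangles reaction 2, and the black line is the median over mice; B2M lay at 1553 to 3959 CPM in tumor cells and at 3855 CPM or above in every immune sum.

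The heavy chains were ordered differently between the cell classes, and HLA-F separated them most. HLA-F (ENSG00000204642), a non-classical heavy chain, lay at 31.7 to 87.6 CPM in macrophages (median 54.6, 14 mice), at 52.7 to 92.4 in monocytes (median 70.0, 14 mice), at 82.1 to 167 in dendritic cells (median 125, 12 mice) and at 138 to 183 in lymphoid cells (median 155, 14 mice). The lymphoid and macrophage ranges did not overlap, and the dendritic and macrophage ranges overlapped at their edges only. HLA-F was higher than in macrophages by 1.24 ± 0.08 (SE) on the log2 scale in lymphoid cells, by 1.14 ± 0.10 in dendritic cells and by 0.39 ± 0.08 in monocytes, with adjusted p of 4.13e-19, 3.3e-13 and 6.19e-05. In direct pairs within mice, HLA-F was lower in dendritic than in lymphoid cells in 10 of the 12 mice with both, which leaves 2 mice with the opposite order.

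HLA-C (ENSG00000204525), a classical heavy chain that is also a ligand of NK receptors, was a lymphoid gene in this order. It lay at 940 to 1534 CPM in lymphoid cells (median 1198), above the 439 to 914 CPM in macrophages (median 718) and overlapping at the edge with the 580 to 958 CPM in monocytes (median 756). By reaction, the lymphoid range was 1234 to 1534 CPM in reaction 1 and 940 to 1163 in reaction 2. Within mice, monocytes were higher than lymphoid cells in 0 of 14. The dendritic range of 400 to 1119 CPM (median 743) covered that of the macrophages. HLA-C was higher by 0.61 ± 0.07 in lymphoid cells than in macrophages (adjusted p = 6.05e-10), whereas dendritic cells differed from macrophages by 0.12 ± 0.08 (adjusted p = 0.212). With a stricter hashtag rule (top hashtag at least 80% and 10 UMIs) the dendritic difference was 0.37 over 9 mice and passed. Monocytes were higher than macrophages by 0.21 ± 0.07 (adjusted p = 0.0165), and in plain CPM macrophages were higher in 3 of 14 mice. The monocyte call was lost without reaction 1 maraviroc mouse 1, with a difference of 0.19 left (adjusted p = 0.0513). It was also lost with DESeq2 (0.13), library size alone (0.11) and all genes with 1 count (0.14). In reaction 1 alone (0.17) and reaction 2 alone (0.25) it did not pass either.

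HLA-B (ENSG00000234745), the other classical chain in the set, was the most abundant heavy chain of the 4 in every immune class. It ranged over 955 to 1770 CPM in macrophages (median 1451), 1268 to 1891 in monocytes (median 1502), 1033 to 2678 in dendritic cells (median 1868) and 1501 to 2149 in lymphoid cells (median 1778). All 4 ranges overlapped, and the dendritic range was the widest. Within mice, HLA-B was higher in dendritic cells than in macrophages in 12 of 12 mice, by 0.45 ± 0.08 (adjusted p = 2.71e-06). Monocytes were higher by 0.23 ± 0.07 (adjusted p = 0.00666), and lymphoid cells by 0.12 ± 0.07, which did not pass the test (adjusted p = 0.116). Without reaction 2 maraviroc mouse 3 or reaction 2 untreated mouse 1 the lymphoid difference passed, at 0.16 (adjusted p from 0.0445 to 0.0446). It also passed with DESeq2 (0.18), in reaction 1 alone (0.23) and with library size alone (0.36), and in plain CPM lymphoid cells were higher in 12 of 14 mice.

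HLA-E (ENSG00000204592), whose complex with a leader peptide is the ligand of the NK receptor NKG2A, ran against the other heavy chains. It was at 253 to 765 CPM in dendritic cells (median 384), at 411 to 588 in monocytes (median 466), at 499 to 662 in macrophages (median 570) and at 491 to 662 in lymphoid cells (median 608). Macrophages exceeded monocytes in 14 of 14 mice and dendritic cells in 11 of 12. HLA-E was thus the 1 member that was lower in dendritic cells, by -0.48 ± 0.07 (adjusted p = 2.79e-07), and it was also lower in monocytes, by -0.17 ± 0.06 (adjusted p = 0.0208). In reaction 1 alone neither difference passed, at -0.32 in dendritic cells (5 mice) and -0.15 in monocytes. Leaving out reaction 1 untreated mouse 3, reaction 2 maraviroc mouse 2 or reaction 2 untreated mouse 3 ended the call in monocytes, with adjusted p from 0.0509 to 0.0955. Lymphoid cells and macrophages could not be ordered for HLA-E, because the sign depended on the scaling. The difference was -0.17 ± 0.06 with the TMM normalization of edgeR (adjusted p = 0.0172) and 0.07 with library size alone, and in plain CPM macrophages were higher in 3 of 14 mice. Without reaction 1 maraviroc mouse 1 or reaction 2 untreated mouse 1 the TMM call was lost (adjusted p from 0.0576 to 0.0646).

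B2M (ENSG00000166710), the light chain shared by all heavy chains, was by far the most abundant member. It lay at 3855 to 5556 CPM in monocytes (median 4468), 4327 to 7360 in macrophages (median 6137), 5378 to 11299 in dendritic cells (median 6837) and 5771 to 9076 in lymphoid cells (median 7757). Monocytes were lower than macrophages in 14 of 14 mice and lower than dendritic cells in 12 of 12. The differences from macrophages were -0.31 ± 0.06 in monocytes (adjusted p = 2.81e-05), 0.32 ± 0.06 in dendritic cells (adjusted p = 3.34e-05) and 0.14 ± 0.06 in lymphoid cells (adjusted p = 0.0292). The lymphoid call was lost when any of 6 mice was left out (reaction 1 untreated mice 2 and 3, reaction 2 maraviroc mice 1 and 2 and reaction 2 untreated mice 2 and 3), with adjusted p from 0.0558 to 0.08, in reaction 1 alone (0.13) and with the stricter hashtag rule (0.11). With library size alone the difference was 0.38, and in plain CPM lymphoid cells were higher in 14 of 14 mice.

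TAP1 and TAP2, which form the peptide transporter together, did not move together between classes. TAP1 (ENSG00000168394) was highest in dendritic cells, at 106 to 219 CPM (median 139), against 94.1 to 136 in lymphoid cells (median 110), 47.5 to 150 in macrophages (median 73.4) and 47.8 to 119 in monocytes (median 71.5). The 47 cDC1-like cells, described further on, held 232 of the 499 TAP1 UMIs of the dendritic singlets, and the other 218 dendritic cells pooled to 93.2 CPM (exact Poisson 95% interval 82.3 to 105), against pooled levels of 113 CPM in lymphoid cells and 79.9 in macrophages. TAP1 was higher in dendritic cells than in macrophages by 0.85 ± 0.11 (adjusted p = 3.73e-09) and in lymphoid cells by 0.23 ± 0.08 (adjusted p = 0.0097), and monocytes differed by 0.00 ± 0.08 (adjusted p = 0.988). In reaction 2 alone the lymphoid difference was 0.10 and did not pass. TAP2 (ENSG00000204267) lay close together in all classes, with medians of 49.9 CPM in macrophages, 41.6 in monocytes, 55.8 in dendritic cells and 45.5 in lymphoid cells. It was lower in lymphoid cells than in macrophages by -0.47 ± 0.08 (adjusted p = 3.63e-07), a difference of -0.23 with library size alone, with macrophages higher in 11 of 14 mice in plain CPM, and the dendritic difference of 0.14 ± 0.12 did not pass (adjusted p = 0.412). A lower value in monocytes of -0.18 ± 0.08 (adjusted p = 0.0408) was lost without any of 8 mice (reaction 1 maraviroc mouse 2 and untreated mice 2 and 3, reaction 2 maraviroc mice 1, 2 and 3 and untreated mice 2 and 3), with adjusted p up to 0.142. The call was also lost in reaction 1 alone (-0.20) and in reaction 2 alone (-0.18). In plain CPM, TAP2 was higher in macrophages than in monocytes in 14 of 14 mice.

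PSMB9 (ENSG00000240065), an interferon-induced catalytic subunit that replaces its constitutive counterpart in the immunoproteasome, was highest in lymphoid cells, as HLA-F was. Its range was 127 to 342 CPM in macrophages (median 228), 153 to 356 in monocytes (median 223), 245 to 606 in dendritic cells (median 352) and 465 to 785 in lymphoid cells (median 566). Neither macrophages nor monocytes reached the lymphoid range. The cDC1-like cells within the dendritic class pooled to 839 CPM of PSMB9 in reaction 1 (11 cells) and 699 in reaction 2 (36 cells). Lymphoid medians over mice were 703 and 517 CPM, and the difference was not tested. The log2 fold change against macrophages was 1.19 ± 0.09 in lymphoid cells (adjusted p = 2.46e-16), 0.77 ± 0.10 in dendritic cells (adjusted p = 8.68e-09) and 0.17 ± 0.09 in monocytes (adjusted p = 0.101, and 0.0389 without reaction 1 untreated mouse 3, where it was 0.22).

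NLRC5 (ENSG00000140853), the transactivator, was a lymphoid transcript above all. It lay at 101 to 173 CPM in lymphoid cells (median 140), and the other classes stayed below that range, at 27.9 to 75.8 CPM in macrophages (median 44.5), 33.4 to 95.2 in monocytes (median 48.1) and 19.6 to 86.6 in dendritic cells (median 55.0). By reaction, the lymphoid range was 101 to 140 CPM in reaction 1 and 141 to 173 in reaction 2. The lymphoid excess over macrophages was 1.29 ± 0.09 (adjusted p = 9.69e-18). Monocytes were higher than macrophages by 0.27 ± 0.09 (adjusted p = 0.0114), and dendritic cells by 0.16 ± 0.14, which did not pass (adjusted p = 0.354). In dendritic cells as a class, TAP1, PSMB9 and HLA-F exceeded macrophages, while NLRC5 could not be told apart from macrophages. The depth was 10 to 41 dendritic cells per mouse, and the class mixes unlike cells. Pooled over mice, the 47 cDC1-like cells held 733 CPM of PSMB9, 302 of TAP1 and 83.4 of NLRC5. The other 218 dendritic cells held 260, 93.2 and 43.6 CPM, and macrophages 217, 79.9 and 46.8. HLA-F was at 116 CPM in the cDC1-like and 124 in the other dendritic cells, against 56.2 in macrophages. Whether NLRC5 goes with these genes among dendritic cells was not tested.

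**Figure D2:**
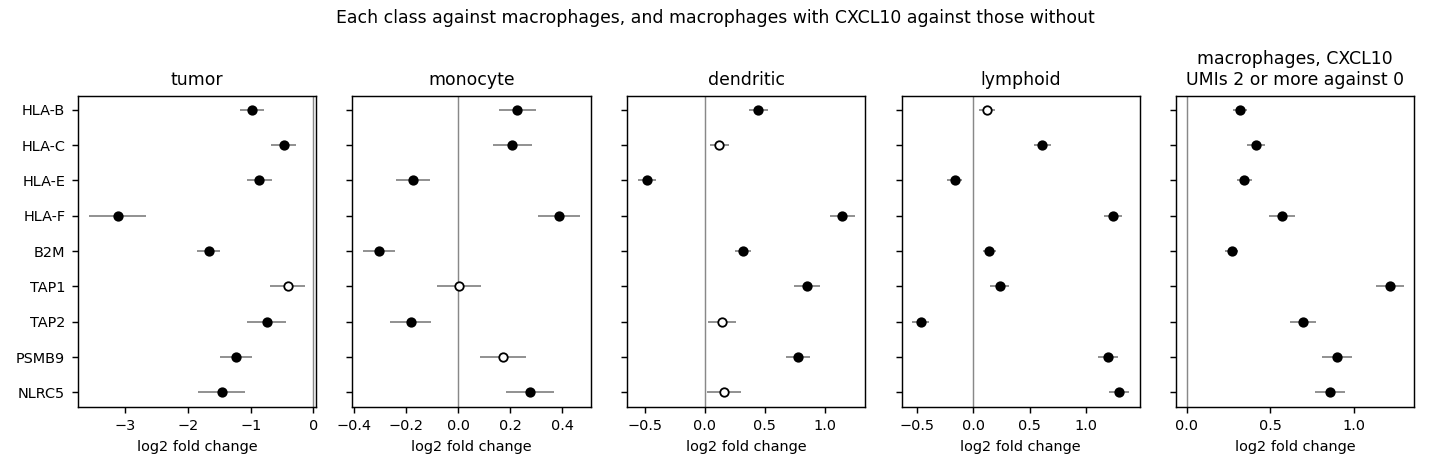
Log2 fold changes (horizontal axes, a different scale in each panel) of the 9 genes in tumor, monocyte, dendritic and lymphoid cells against macrophages and in macrophages with CXCL10 against those without. Points are edgeR estimates with their standard errors as bars, filled where the adjusted p was under 0.05 and open where it was not; all 9 points are filled and above 0 in the CXCL10 panel, from 0.27 for B2M to 1.22 for TAP1.

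Counted over the 9 genes, 5 were higher and 1 lower in dendritic cells than in macrophages, 6 higher and 2 lower in lymphoid cells, and 4 higher and 3 lower in monocytes. The monocyte calls of HLA-B, HLA-C and NLRC5 were lost with library size alone, at 0.13, 0.11 and 0.18, and with DESeq2, at 0.15, 0.13 and 0.20; those of HLA-B and HLA-C were also lost in each reaction alone. Calls were frequent among all 12402 genes tested: 24.1% were higher and 30.6% lower in dendritic cells, 41.9% and 38.4% in lymphoid cells, and 26.7% and 29.7% in monocytes. The median log2 fold change of the 9 genes was 0.32 in dendritic cells, 0.23 in lymphoid cells and 0.17 in monocytes, against -0.10, 0.05 and -0.04 for all genes. With library size alone the medians of all genes moved to -0.15, 0.29 and -0.14, and those of the members to 0.28, 0.47 and 0.08.

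The other genes of the pathway are given by step, to be read against the shares of all genes just given. Of 7 proteasome genes, 4 were higher and 1 lower in lymphoid cells than in macrophages. Those with the largest differences were PSMB8, a further immunoproteasome subunit (0.76 ± 0.07, adjusted p = 7.92e-14), PSME1, a subunit of the proteasome activator (0.76 ± 0.06, adjusted p = 7.63e-16), and PSMB5, the constitutive counterpart of PSMB8 (-0.35 ± 0.07, adjusted p = 1.38e-05). In dendritic cells 3 of the 7 were higher and 1 lower, led by PSME1 at 0.69 ± 0.07 and PSMB8 at 0.46 ± 0.08, and in monocytes 2 were higher and 1 lower. The peptide loading list went mostly the other way, with 1 of 6 genes higher and 4 lower in lymphoid cells, 1 higher and 3 lower in dendritic cells, and 1 higher and 4 lower in monocytes. CANX and CALR, general chaperones of the endoplasmic reticulum, fell by 1.65 ± 0.07 and 1.06 ± 0.08 in lymphoid cells and by 0.87 ± 0.09 and 0.65 ± 0.09 in dendritic cells. TAPBP, or tapasin, which tethers the heavy chain to the transporter, was the gene that rose in dendritic cells (0.58 ± 0.08, adjusted p = 4.39e-08) and in monocytes (0.34 ± 0.07, adjusted p = 4.03e-05).

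Of 10 genes of transcription and interferon signalling, 4 were higher and 4 lower in lymphoid cells than in macrophages, 4 higher and 3 lower in dendritic cells, and 4 higher and 1 lower in monocytes. In lymphoid cells these counts were close to the 41.9% and 38.4% of all genes. Both chains of the interferon gamma receptor were lower in lymphoid cells, IFNGR2 by -3.41 ± 0.12 and IFNGR1 by -2.31 ± 0.09, whereas RFXAP, a subunit of the RFX complex that binds class I and class II promoters, was higher by 1.14 ± 0.14 in lymphoid and by 2.44 ± 0.22 in dendritic cells. MR1, a class I-like molecule that shows vitamin B metabolites, was lower in dendritic cells by -1.02 ± 0.20 (adjusted p = 2.18e-05) and higher in monocytes by 0.58 ± 0.09 (adjusted p = 8.15e-07). HLA-G was too low to be tested, with medians of 0.00 to 1.73 CPM in the 4 immune classes. Among the receptors of class I, 3 of 5 were higher and 2 lower in lymphoid cells: KLRC1, which encodes NKG2A, by 5.98 ± 0.28 and CD8A by 5.23 ± 0.24, and the inhibitory LILRB2 by -4.71 ± 0.19 and LILRB1 by -3.87 ± 0.19. IFNG itself lay at 43.7 to 155 CPM in lymphoid cells (median 103, 14 mice), against medians of 1.51 CPM in macrophages and 0.71 in monocytes.

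Within the lymphoid gate, no member passed the test between NK and T cells. NK cells here are cells with NK genes and no UMI of CD3 genes or TRAC (528 singlets). T cells are those with at least 2 UMIs of CD3 genes or TRAC (4815 singlets). The T cells also held GNLY, at 2042 to 14355 CPM (median 4152) against 7782 to 14844 (median 10734) in NK cells. The NK gate rests on absent UMIs, and how cleanly the gates part the 2 kinds was not tested. Over the 10 mice with at least 10 cells of both, 0 of 9 members passed the test, while 9.1% of 7876 genes did. The nearest to the threshold was B2M, at 5882 to 8554 CPM in NK cells (median 7211, 10 mice) and 5841 to 9624 in T cells (median 8014, 14 mice), a difference of -0.15 ± 0.08 (adjusted p = 0.291). NLRC5 lay at 53.6 to 225 CPM in NK cells (median 107) and 99.5 to 172 in T cells (median 138), with a difference of -0.20 ± 0.16 (adjusted p = 0.591). The heavy chains differed by -0.11 ± 0.10 for HLA-B, -0.06 ± 0.09 for HLA-C, -0.03 ± 0.10 for HLA-E and 0.14 ± 0.14 for HLA-F, and TAP1, TAP2 and PSMB9 by -0.06 ± 0.16, 0.37 ± 0.24 and -0.11 ± 0.11. At an unadjusted p under 0.05, edgeR and DESeq2 each gave 0 members with these gates, and 1493 and 1331 of all 7876 genes. With NK and T cells told apart by T cell receptor constant genes, an unplanned gate, edgeR gave 5 members over 12 mice, and 1744 of all 6439 genes. The median log2 fold change of the 9 members was then -0.19, against -0.01 for all genes. Doubled marker minimums gave 2 members and 1394 of 6981 genes, and reaction 1 alone 2 members and 1552 of 7885 genes. Library size alone, cells with over 1000 genes and reaction 2 alone gave 1 member each, and 1527 of 7876, 1328 of 7709 and 1133 of 10683 genes. No member passed after adjustment in these fits. When all genes with 1 count were kept, 4 members passed as lower in NK cells, B2M (-0.38), HLA-B (-0.34), PSMB9 (-0.34) and HLA-C (-0.29). Of all 25829 genes in that fit, 1028 passed as lower and 653 as higher. NK cells were shallower than T cells, with a median over mice of 1806 against 4664 UMIs per cell in reaction 1, and held more myeloid transcript: of 8 myeloid genes looked at (APOE, C1QA, CD68, CST3, FCN1, MS4A7, S100A8 and S100A9, chosen after seeing the data) 7 had the higher median in NK cells and APOE had a median of 0 there, and their summed level was 84.0 to 3957 CPM (median 1536) against 87.7 to 726 (median 263). The part of depth and of these transcripts in the values was not tested. B cells (120 singlets) were not tested, and their NLRC5 level was 150 to 249 CPM in the 5 mice with at least 10 of them (median 216); the pooled level was 168 CPM in reaction 1 and 196 in reaction 2.

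Among dendritic cells, the cDC1-like cells (CLEC9A or XCR1, 47 singlets) stood above the cDC2-like cells (CD1C, FCER1A or CD1E without CLEC9A and XCR1, 44 singlets) for all 9 members when pooled over mice. TAP1 was at 302 CPM in cDC1-like cells (exact Poisson 95% interval 265 to 344) and at 92.4 CPM in cDC2-like cells (70.7 to 119). PSMB9 was at 733 CPM (674 to 796) against 376 (330 to 425), HLA-B at 2361 (2254 to 2473) against 1478 (1387 to 1574), and NLRC5 at 83.4 (64.2 to 106) against 39.4 (25.7 to 57.7). B2M was at 7794 against 5371 CPM, HLA-C at 895 against 723, HLA-E at 430 against 285, HLA-F at 116 against 69.7 and TAP2 at 89.9 against 50.0. The order was the same in each reaction for TAP1, at 347 against 120 CPM in reaction 1 and 288 against 81.8 in reaction 2. These intervals cover counting error only, no mouse had 10 cells of both kinds, and no test between mice was made.

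Macrophages differed among themselves in all 9 members. Those with at least 2 UMIs of CXCL10, a chemokine induced by interferons (1241 singlets), were compared with those without any (4982 singlets) within each of 14 mice. All 9 members were higher in the CXCL10+ macrophages, where 9.64% of 10141 genes tested were higher and 8.12% lower, and the median log2 fold change of the members was 0.57 against 0.00 for all genes. With library size alone the split of all calls turned, from 978 higher and 823 lower genes to 803 and 1020, and the 9 member calls stayed. TAP1 lay at 101 to 218 CPM in CXCL10+ macrophages (median 142) and at 41.7 to 100 CPM in the others (median 60.2), ranges that did not overlap. Its log2 fold change was 1.22 ± 0.08 (adjusted p = 5.44e-11), followed by PSMB9 at 0.90 ± 0.09 (adjusted p = 2.85e-08), NLRC5 at 0.86 ± 0.09 (adjusted p = 9.64e-08) and TAP2 at 0.69 ± 0.08 (adjusted p = 3.02e-07). NLRC5 went from 24.2 to 64.5 CPM (median 37.4) in the CXCL10-negative to 48.4 to 95.8 CPM (median 72.4) in the CXCL10+ cells, with overlap. The heavy chains and B2M rose less, HLA-F by 0.57 ± 0.08, HLA-C by 0.42 ± 0.05, HLA-E by 0.34 ± 0.04, HLA-B by 0.32 ± 0.04 and B2M by 0.27 ± 0.04, with adjusted p from 2.33e-06 to 1.19e-05. Here both transporter chains moved together, unlike between classes.

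In the same comparison 5 of 7 proteasome genes, 4 of 6 peptide loading genes and 5 of 9 tested genes of transcription and interferon signalling were higher, and 2 signalling genes were lower. IRF1, an interferon-induced transcription factor, rose by 1.17 ± 0.11 (adjusted p = 9.17e-09) and JAK2 by 0.95 ± 0.07 (adjusted p = 3.59e-10), whereas IFNGR1 fell by 0.25 ± 0.05. LILRB1, an inhibitory receptor of class I, was also higher, by 0.64 ± 0.08 (adjusted p = 2.47e-06). CXCL10+ macrophages were deeper than the others, with a median over mice of 4535 against 3289 UMIs per cell in reaction 1 and 14804 against 12531.5 in reaction 2. All 9 members were also called in each reaction by itself and among cells with over 1000 genes.

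Tumor cells had the lowest median level of all 9 members, narrowly so for HLA-E and TAP1. The HLA-E median was 379 CPM against 384 in dendritic cells, and that of TAP1 was 67.1 against 71.5 in monocytes. Pooled over the cells of reaction 2, tumor cells were not the lowest. TAP1 was at 90.5 CPM against 78.5 in monocytes there, and HLA-E at 376 against 373 in dendritic cells. In reaction 1 tumor cells were lower, at 46.2 against 78.0 CPM for TAP1 and 330 against 430 for HLA-E. Tumor cells were tested against macrophages only. The gate asked for at least 10 UMIs of tumor genes and none of PTPRC, which encodes CD45, so these were cells without CD45 transcript in a CD45+ sort. Only 1 mouse had 10 such singlets, and sums of at least 3 cells from 9 mice were used instead, a choice made after seeing the data. B2M was at 1553 to 3959 CPM (median 1933, 9 mice), below every macrophage sum, and HLA-F had no UMI in 5 of the 9 sums and 26.8 CPM at most. Against macrophages of the same mice, 8 of 9 members were lower and 0 higher, where 32.7% of 9156 genes tested were lower and 20.5% higher. The median log2 fold change was -0.98 for the members and -0.23 for all genes, and the latter moved to 0.02 with library size alone. B2M differed by -1.67 ± 0.18 (adjusted p = 3.53e-10), NLRC5 by -1.46 ± 0.37 (adjusted p = 0.000943), PSMB9 by -1.24 ± 0.25 (adjusted p = 6.25e-05), HLA-B by -0.98 ± 0.19 (adjusted p = 3.66e-05) and HLA-E by -0.86 ± 0.19 (adjusted p = 0.000251). Pooled over 65 cells, HLA-F had 7 UMIs, or 6.93 CPM (exact Poisson 95% interval 2.79 to 14.3).

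HLA-C and TAP2 were lower in tumor cells by -0.47 ± 0.20 (adjusted p = 0.0428) and -0.75 ± 0.31 (adjusted p = 0.037), calls that were lost with library size alone (-0.22 and -0.50), and TAP1 at -0.41 ± 0.28 did not pass (adjusted p = 0.228). TAP1 in tumor cells spread from 18.9 to 358 CPM, and its highest value came from the 3 tumor cells of reaction 2 maraviroc mouse 3. The same 3 cells gave the highest tumor values of HLA-B (1775 CPM), HLA-C (1024), HLA-E (666), B2M (3959), TAP2 (85.3) and PSMB9 (341), and the macrophages of this mouse had the highest TAP1, TAP2, PSMB9 and HLA-F of all 14 mice. C1QA, at 1814 and 1693 CPM in the macrophages of the reactions, was at 26.4 and 18.4 in tumor cells. GNLY, at 6797 and 4224 in lymphoid cells, was at 23.1 and 11.3. Both are gate markers whose UMIs the tumor gate limits, so these low values cannot show how much immune RNA the tumor cells held. The proteasome list split here, with the constitutive subunits PSMB5 (1.25 ± 0.23, adjusted p = 1.15e-05) and PSMB6 (1.02 ± 0.21, adjusted p = 7.13e-05) higher in tumor cells and PSMB10 lower (-1.35 ± 0.27, adjusted p = 5.89e-05), 3 higher and 2 lower of 7 in all. Of 8 tested genes of transcription and interferon signalling 5 were lower and 0 higher, among them IFNGR1 (-2.88 ± 0.30) and JAK2 (-1.98 ± 0.31).

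Maraviroc did not change any member detectably in any of the 4 immune classes. Each class was fitted by itself with the reaction as a term, and 0 of 9 members passed in macrophages, monocytes, lymphoid and dendritic cells, where the share of all genes that passed was also 0% in each of the 4 classes. At an unadjusted p under 0.05, edgeR gave 424 of 12077 genes in macrophages, 398 of 9986 in monocytes, 492 of 11763 in lymphoid cells and 222 of 3589 in dendritic cells, and 0 members among them. With DESeq2 0 members passed as well, and 3 genes passed in lymphoid cells and 0 in the other classes.

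In macrophages, TAP1 was at 47.5 to 124 CPM in untreated mice (median 70.2, 7 mice) and at 71.3 to 150 in maraviroc-treated mice (median 79.3, 7 mice), with wide overlap. The difference was 0.11 ± 0.24 over both reactions, -0.14 in reaction 1 and 0.36 in reaction 2. NLRC5 was at 27.9 to 75.8 CPM in untreated (median 41.8) and 32.2 to 65.5 in treated mice (median 48.8), a difference of -0.02 ± 0.20. B2M was at 4327 to 7360 CPM (median 6322) and 5445 to 7078 (median 6136), a difference of 0.09 ± 0.11, and PSMB9 at 127 to 338 CPM (median 243) and 167 to 342 (median 214), a difference of 0.13 ± 0.22. The other differences were 0.07 ± 0.14 for HLA-B, 0.07 ± 0.14 for HLA-C, -0.01 ± 0.07 for HLA-E, 0.07 ± 0.20 for HLA-F and 0.15 ± 0.12 for TAP2. For the 4 genes given by level the untreated mice held both the lowest value and, for NLRC5 and B2M, the highest.

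In monocytes, all 9 estimates were above 0, from 0.02 ± 0.08 for HLA-E to 0.20 ± 0.12 for HLA-F, and HLA-F lay at 52.7 to 81.4 CPM in untreated (median 66.6) and 64.2 to 92.4 in treated mice (median 71.5). Between them lay B2M (0.03 ± 0.08), HLA-C (0.04 ± 0.10), HLA-B (0.07 ± 0.08), NLRC5 (0.12 ± 0.24), TAP1 (0.15 ± 0.18), TAP2 (0.16 ± 0.16) and PSMB9 (0.16 ± 0.17). The median in monocytes was 0.12 for the members and -0.003 for all 9986 genes. The 9 values come from the same cells and mice, so their like signs are not independent. In dendritic cells HLA-B had the smallest unadjusted p of the 36 member values, at 1033 to 2678 CPM in 6 untreated mice (median 1755) and 1684 to 2642 in 6 treated mice (median 1943), a difference of 0.32 ± 0.17 (adjusted p = 0.83). The other dendritic estimates were 0.26 ± 0.19 for PSMB9, 0.17 ± 0.19 for HLA-F, 0.17 ± 0.32 for NLRC5, 0.16 ± 0.20 for HLA-C, 0.14 ± 0.17 for B2M, 0.11 ± 0.25 for HLA-E, 0.05 ± 0.22 for TAP1 and -0.11 ± 0.30 for TAP2. Lymphoid estimates were the tightest, between -0.08 ± 0.07 for HLA-F and 0.11 ± 0.10 for TAP2, with PSMB9 at -0.06 ± 0.09, HLA-B at -0.04 ± 0.06, HLA-C at -0.01 ± 0.06, NLRC5 at 0.00 ± 0.08, HLA-E at 0.02 ± 0.07, B2M at 0.03 ± 0.08 and TAP1 at 0.07 ± 0.08. The standard errors in macrophages ran from 0.07 for HLA-E to 0.24 for TAP1. The product of treatment and reaction was also without a call: 0 of 9 members and 0% of all genes passed in each of the 4 classes.

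**Figure D3:**
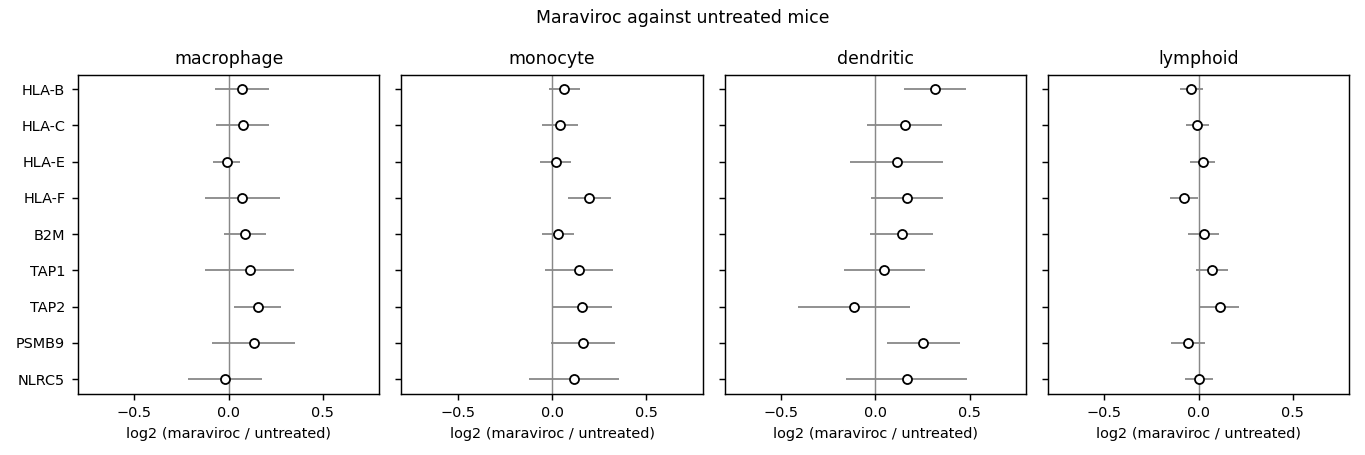
Log2 fold changes of maraviroc-treated over untreated mice (horizontal axes) for the 9 genes in macrophages, monocytes, dendritic and lymphoid cells, with standard errors derived from the edgeR test as bars. All points are open because none passed the test, and the estimates run from -0.11 for TAP2 to 0.32 for HLA-B, both in dendritic cells.

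Mice differed in the class I level of their macrophages, and NLRC5 followed it. The relation was asked for because NLRC5 is the transactivator of these genes. Over 14 mice, log2 CPM of NLRC5 in macrophages correlated with each of the other 8 members, with Pearson's r of 0.84 for TAP2 and for TAP1, 0.82 for HLA-F and HLA-E, 0.70 for HLA-B, 0.66 for PSMB9, 0.56 for B2M and 0.54 for HLA-C. Permutation p-values adjusted over the 8 relations ran from 0.00088 to 0.0453 (100000 resamples, two-sided), and raw p from 0.00024 to 0.0453. Spearman's rho was between 0.57 for B2M and 0.82 for HLA-F, with adjusted p from 0.0028 to 0.0361. Within reaction 1 (7 mice) r was 0.74 to 0.88, with exact permutation p from 0.00238 to 0.0587, and within reaction 2 (7 mice) 0.82 to 0.91, with exact permutation p from 0.00258 to 0.0171. The pooled r was below both of these values for 7 of the 8 members, all but TAP2.

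The relation rested in part on the mice at the ends. Without the 2 mice farthest from the median of NLRC5, r was 0.78 for TAP1, 0.72 for TAP2 and for HLA-F and 0.62 for HLA-E, and fell to 0.57 for PSMB9, 0.53 for HLA-B, 0.44 for HLA-C and 0.36 for B2M, with permutation p of 0.0534, 0.0731, 0.152 and 0.256 for these last 4. The lowest macrophage NLRC5 of reaction 1, 27.9 CPM in untreated mouse 2, came with the lowest values of all 8 other members in that reaction, among them 961 CPM of HLA-B and 128 of PSMB9. The lowest of reaction 2, 40.5 CPM in untreated mouse 3, likewise came with the lowest values of all 8 in its reaction, among them 955 CPM of HLA-B and 127 of PSMB9. As a background, the median r with NLRC5 over 12143 genes of the same macrophage sums was -0.02 against 0.76 for the 8 members, and 5.14% of these genes had an r at or above the lowest member's. NLRC5 and the other members come from the same cells and libraries.

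**Figure D4:**
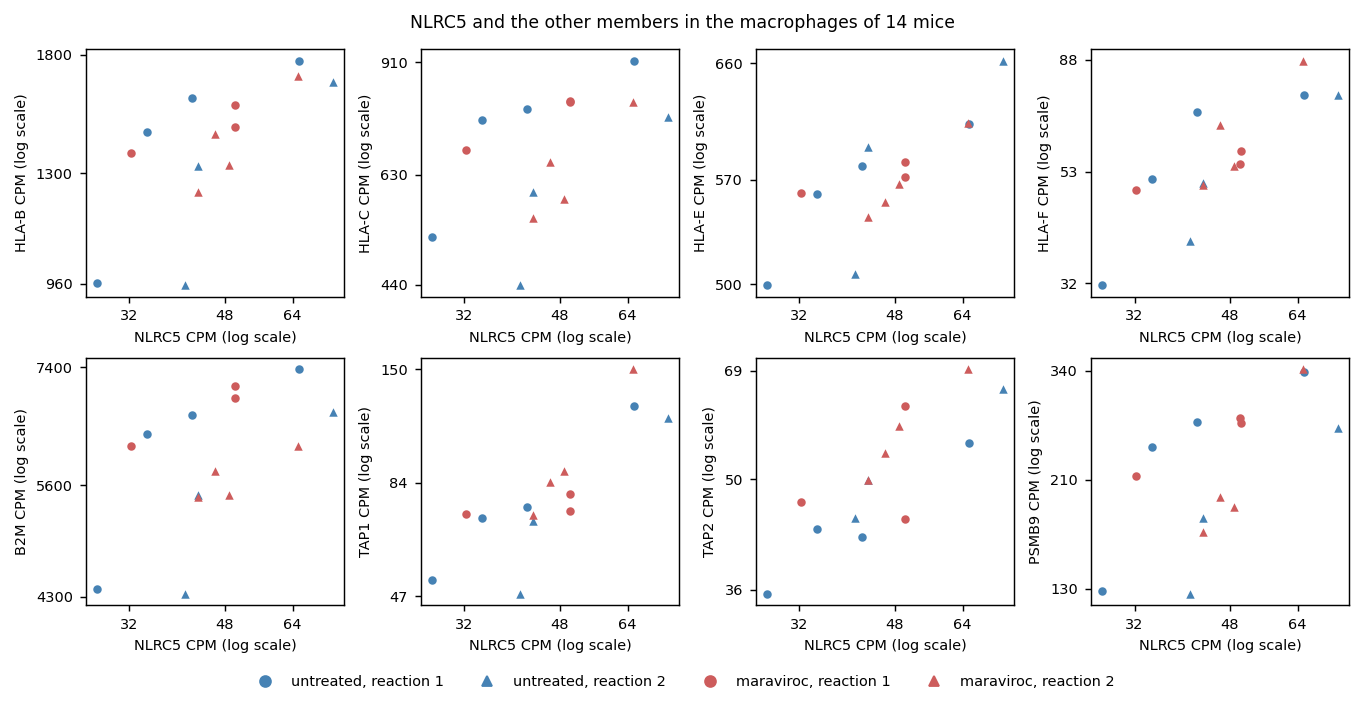
NLRC5 against each of the other 8 members in the macrophages of 14 mice, in CPM on log axes, with 1 point per mouse (blue untreated, red maraviroc-treated, circles reaction 1, triangles reaction 2). All panels slope upwards, with r from 0.54 for HLA-C to 0.84 for TAP2, and the untreated mouse with the lowest NLRC5 of each reaction also has that reaction's lowest value of the other gene.

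The share of CXCL10+ cells among macrophages moved with the same levels. It ran from 7.80% to 27.6% in reaction 1 and up to 37.2% in reaction 2, with a lowest share of 36 of 450 cells there, and reaction 2 maraviroc mouse 3 had the highest share. A cut at 2 UMIs depends on depth. Median UMIs per macrophage ran from 2502 to 5807 over the mice of reaction 1 and from 11791 to 14274 in reaction 2. The part of depth in the share was not tested. The r of this share over 14 mice was 0.92 with TAP1, 0.84 with NLRC5, 0.83 with HLA-F and 0.41 with B2M, given as a description. The levels include the CXCL10+ cells themselves, in which all 9 members were higher, so share and level are not independent. The median r was 0.79 for the members and -0.07 over 12144 macrophage genes. Of these genes, 11.7% had an r at or above the lowest member's. Within reaction 2 all 9 member values were 0.83 or above, and within reaction 1 they ran from 0.50 for TAP2 to 0.93 for TAP1. In macrophages without a CXCL10 UMI, an alternative chosen after seeing the data, Pearson's r of NLRC5 passed with all 8 members, from 0.58 for HLA-C to 0.85 for TAP1, with adjusted permutation p from 0.00168 to 0.0319. Spearman's rho did not pass there for HLA-C, HLA-E, B2M and PSMB9, with rho of 0.56, 0.53, 0.53 and 0.58 and adjusted permutation p from 0.051 to 0.0551. Within reaction 2 Pearson's r in these macrophages was 0.61 to 0.77 (7 mice). Its unadjusted exact permutation p ran from 0.0391 to 0.145, with TAP1 and PSMB9 under the threshold. Spearman's rho ran from 0.25 for HLA-E to 0.86 for TAP1 there.

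IFNG transcript in lymphoid cells of the same mouse was compared with the macrophage members, since interferon gamma from lymphocytes induces class I genes. Over 14 mice the relation passed for 2 of 9 members, TAP2 (r = 0.72, rho = 0.75, permutation p = 0.00279, adjusted over the 9 to 0.0251) and NLRC5 (r = 0.69, rho = 0.61, permutation p = 0.00649, adjusted 0.0292, but 0.107 for rho). For the other 7, r was between 0.26 for HLA-C and 0.58 for HLA-E, with adjusted p from 0.0989 to 0.374. The relation did not hold within both reactions: r was 0.72 to 0.85 in reaction 1 (7 mice, exact permutation p from 0.0107 to 0.0613) and 0.08 to 0.41 in reaction 2 (7 mice, exact permutation p from 0.366 to 0.847). Without the 2 mice farthest from the median of IFNG, r was 0.51 for TAP2 and 0.42 for NLRC5, with permutation p of 0.094 and 0.176, so that both relations rested on those mice. The median r with IFNG over 12144 macrophage genes was 0.05, against 0.50 for the members, and 27.5% of these genes had an r at or above the lowest member's.

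Over the 54 sums of mouse and immune class, the genes whose log2 (CPM + 1) pattern was most like that of NLRC5 among 12402 genes were SLAMF1 (r = 0.88), RNF19A (0.86) and C5orf56 (0.86). TAP1 was most like SLAMF7 (0.86), BCL2L14 (0.76) and LY75 (0.76), where LY75 is an endocytic receptor of dendritic cells. B2M was most like ISCU (0.84), LANCL1 (0.83) and TMSB4X (0.83), and HLA-E like FDXR (0.82), TMEM106C (0.81) and AC008875.3 (0.81). Among the members themselves, NLRC5 was closest to PSMB9 (0.79) and HLA-C (0.75) over these sums and farthest from TAP2 (0.21), and TAP1 and HLA-E had an r of -0.01. The points share mice and classes, and no test was made.

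Hashtag counts read B2M at the surface only in part, since 1 of the 2 clones binds beta-2-microglobulin and the other CD298. Median hashtag UMIs of singlets in reaction 2 were 1970 in macrophages, 1096 in monocytes, 901 in dendritic cells, 717 in lymphoid cells and 452 in tumor cells, whereas B2M transcript was 5507, 4477, 6677, 7621 and 2079 CPM in the same cells. Tumor cells were lowest in both, but the lymphoid cells, highest in B2M CPM, were next to lowest in hashtag counts. These units differ, since CPM is a share of UMIs and hashtag counts are per cell. Median B2M UMIs per cell were 66 in macrophages, 50 in monocytes, 88 in dendritic cells, 58 in lymphoid cells and 30.5 in tumor cells. By that measure the dendritic cells, not the lymphoid cells, were highest. In reaction 1 the order of hashtag counts was different, with 849 in dendritic cells, 645 in monocytes, 591 in macrophages, 504 in tumor cells and 466 in lymphoid cells. Hashtag counts mix both clones, and singlets are chosen by these counts. Barcodes of the tumor gate were called negative for any hashtag in 18.9% (reaction 1) and 23.2% (reaction 2) of cases, against 15.4% and 0.232% of macrophages and 26.1% and 1.62% of lymphoid cells. In reaction 2, tumor cells without a hashtag held 1576 B2M CPM (exact Poisson 95% interval 1309 to 1882, 13 cells) and those with 1 hashtag 2079 (1974 to 2188, 38 cells), and in reaction 1 the order was the opposite, with 2503 (2030 to 3053, 7 cells) and 2040 (1882 to 2207, 27 cells).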

How the data were processed

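Human CD45+ cells were profiled with 3′ droplet RNA-seq in 2 reactions, each with a gene library and a hashtag library. The deposited values are whole UMI counts per gene and barcode, without normalization, which per the submitters' processing notes came from Cell Ranger 9.0.1 and the GRCh38 build, with Seurat 5.1.0 downstream. Totals were 133089612 gene UMIs in reaction 1 and 175447534 in reaction 2, and 136 barcode sequences occur in both reactions and were kept as separate cells. Hashtags were called with HTODemux (Seurat 5.3.0, R 4.3.3, centered log-ratio, quantile 0.99), which among barcodes past the limits below left out 10174 doublets and 5554 negatives in reaction 1 and 2142 and 119 in reaction 2. No other doublet caller was run.

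Cells were kept with over 600 and at most 6000 genes and under 12.5% mitochondrial counts and placed by marker UMIs. Counts were summed per mouse and class with at least 10 cells and tested with edgeR 4.0.16 (filterByExpr, TMM, quasi-likelihood, Benjamini-Hochberg over all genes, threshold 0.05), with DESeq2 1.42.0 as an alternative. The edgeR test itself gives no standard error. Those printed are the absolute log2 fold change divided by the square root of its F statistic. The edgeR code was also run on macrophage sums simulated with known changes and the same dispersion for all genes. That run did not cover the class contrasts, the sparser classes or changes as small as those of the members under maraviroc. Relations across mice used log2 CPM (IFNG with a pseudocount of 1 CPM) and permutation tests in Python 3.11.15. The 95% intervals are exact Poisson intervals; they include no variation beyond counting.

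All 9 members are given in every comparison; of each further list, the genes with the largest changes, 4 at most. The members and lists were chosen with earlier results of these data known. No human sequence was used here, so none is printed. The cDC1 against cDC2 test could not be made. Clustering and integration of the study were not repeated. Results of 1 listed gene are not reported here.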

Additional observations from a re-analysis of the deposited data

Results flagged for a closer look

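Each member was screened for a mouse far from the others of its treatment in each class, by the gap to the nearest mouse over the whole range. Of 72 groups of 6 or 7 mice, 7 held such a mouse, where chance flags about 1 in 20 groups. In dendritic cells the untreated mouse 1 of reaction 1, with 11 cells, was the highest for B2M (11299 CPM, next 7335, ratio 0.669) and HLA-E (765 CPM, next 413, ratio 0.688). Maraviroc mouse 3 of reaction 1, with 19 dendritic cells, was the highest treated mouse for B2M (10427 CPM, next 7864, ratio 0.634) and PSMB9 (606 CPM, next 391, ratio 0.779). In macrophages, maraviroc mouse 3 of reaction 2, with 129 cells, was the highest treated mouse for TAP1 (150 CPM, next 88.9, ratio 0.776) and HLA-F (87.6 CPM, next 65.4, ratio 0.571). In lymphoid cells, maraviroc mouse 2 of reaction 1 was the highest treated mouse for PSMB9 (758 CPM, next 601, ratio 0.589). No treatment effect on a member differed between the reactions by the product term of edgeR, whose smallest adjusted p over 36 values was 0.816 and smallest unadjusted p 0.163.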

How the results depend on the processing

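In the CXCL10 comparison of macrophages all 9 members were called under all 8 alternatives, although the split of all calls turned from 978 higher and 823 lower to 803 and 1020 with library size alone and the count of all genes called fell from 1801 to 763 in reaction 1 alone and 888 in reaction 2 alone. In monocytes against macrophages the 7 member calls fell to 4 with DESeq2, with all genes with 1 count and with library size alone, and to 3 in each reaction alone. Calls split into 2508 higher and 4674 lower genes there with library size alone, against 3306 and 3685, and into 6625 and 3822 for lymphoid cells, against 5200 and 4764, and 2419 and 2456 for tumor cells, against 1875 and 2998. HLA-E in lymphoid cells changed sign with library size alone (0.0695 against -0.17). In dendritic cells, 3560 genes were called in reaction 1 alone, against 6784. NK against T cells had 4 member calls and 1681 genes with all genes with 1 count, 306 genes in reaction 2 alone and 23 with the stricter hashtag rule (3 mice), against 0 members and 717 genes. The maraviroc fits had 0 member calls under every alternative run; all genes with 1 count gave 44 genes in monocytes and 136 in dendritic cells, and DESeq2 3 in lymphoid cells. Leaving out each mouse gave 0 to 1 genes in dendritic cells (1 without reaction 2 maraviroc mouse 3 or untreated mouse 1) and 0 in the other classes, and 5 to 7, 6 to 6 and 7 to 9 members for monocytes, dendritic and lymphoid cells against macrophages. Uncalled member values of the maraviroc fits changed sign in 24 of 287 cases, not counting the fits that leave out a mouse. The 2 IFNG relations fell to 0 with the stricter hashtag rule and in macrophages without CXCL10, and the NLRC5 relations with B2M (0.50) and HLA-C (0.50) were lost with the stricter hashtag rule. Levels over all barcodes, without a hashtag call, moved by less than 1 SD between mice in 72 of 72 cases. The cause of these changes was not tested. With 10 to 41 dendritic cells and 3 to 12 tumor cells per mouse, values in these classes rest on few UMIs: over 65 tumor cells HLA-F had 7, NLRC5 21 and TAP2 33.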
